A study of Saccharomyces cerevisiae with 10 samples.

Results

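Yeast dried for 4 h was compared with yeast dried for 1 h. The comparison used 4 of the 10 arrays of the series, the pair taken at 1 h and the pair taken at 4 h, chosen by the time in their titles. The cells were a commercial baker's yeast strain of Saccharomyces cerevisiae from a fed-batch culture, pressed into a cake, laid on trays and dried in an oven with air at 37 degrees. Other pairs of arrays were taken at 0 h, 2 h and 8 h. Poly(A) RNA was labelled and hybridised to Affymetrix Yeast Genome S98 arrays, and the 2 experiments at each time were independent according to the design text. No genotype, ploidy or mating type was given for the strain, and both groups compared had already been in the oven. Heat, time and water loss ran together from 1 h to 4 h and cannot be told apart.

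Yeast that is warmed or loses water unfolds some of its proteins, and heat shock factor and the Msn2 and Msn4 factors then switch on chaperone and stress genes, often for a short time before the mRNA levels settle again. Ribosomal protein and ribosome assembly genes usually move the other way, falling at the start of a stress and returning during adaptation. Transfer RNAs, which carry amino acids to the ribosome, are made by RNA polymerase III and, like most small nucleolar RNAs, which guide the modification of ribosomal RNA, are not polyadenylated in their mature form.

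Signal levels are given as log2 units over the median probe set of the same array, so that 0 is that median and 1 unit is 2-fold. The median intensities of the compared arrays were 63.5 and 67.0 at 1 h and 80.1 and 73.9 at 4 h, within a range of 23.6 to 115.4 over all 10 arrays. Replicates correlated across 5365 genes with a Pearson r of 0.980 at 1 h and 0.962 at 4 h, where genes are not independent replicates. Actin signal at the 3' end over that at the 5' end, which reads RNA integrity, was 3.90 and 2.64 at 1 h and 3.15 and 3.10 at 4 h. The ranges overlapped, as did the mean levels of the 25S ribosomal RNA probe sets, at 5.29 and 5.17 against 5.53 and 5.11. Since the cells were measured in bulk, fewer cells with an RNA and less of it per cell cannot be told apart.

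Between 1 h and 4 h, the signals that rose were those of tRNAs and a small nucleolar RNA, and those that fell were of mRNAs. The labelled RNA had been enriched for poly(A), which mature tRNAs and most small nucleolar RNAs lack, and whether their signal reads the amount of these RNAs in the cell was not tested. Of 5365 genes tested, 42 passed an adjusted p of 0.05 in limma with Benjamini-Hochberg adjustment over all genes, which is 0.783%. The 24 genes that rose (0.447% of those tested) were 23 tRNA genes and SNR38, and the 18 that fell (0.336%) all code for proteins. None of 5202 protein-coding genes rose by this test, and up to 10 did under other settings of the analysis. Without adjustment, 520 genes (9.69%) had a p under 0.05, among them 111 protein-coding genes with positive and 318 with negative changes. All 42 genes had both 4 h arrays outside the range of the 1 h arrays and changed at least 2-fold. Over all genes, 20.5% lay above and 25.4% below without overlap. The 42 genes were chosen on these same arrays, so the shares are not a like comparison. The median change over all genes was -0.04, and over protein-coding genes -0.05. The counts rest on every compared array, since leaving out 1 h replicate 1 gave 4 higher and 0 lower, 1 h replicate 2 gave 1 and 0, 4 h replicate 1 gave 12 and 30, and 4 h replicate 2 gave 7 and 9.

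**Figure D1:**
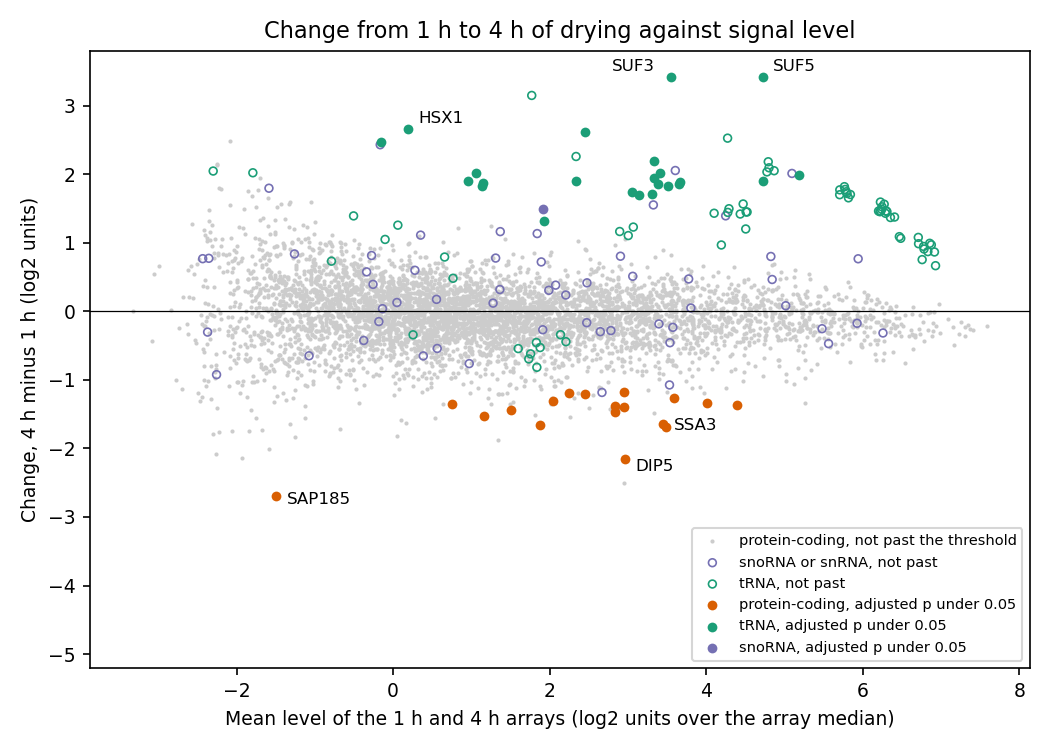
Each point is a gene, with its mean level on the 1 h and 4 h arrays on the horizontal axis and its change from 1 h to 4 h on the vertical axis, both in log2 units. Filled points are the 42 genes with an adjusted p under 0.05, and the tRNA genes (green) lie almost all above 0, with a median of 1.46, while the filled protein-coding genes (orange) lie at or below -1.18.

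In the plot of change against level, most tRNA genes form a band above the protein-coding genes of the same level. Their changes are smaller among the brightest tRNA probe sets, near a level of 6 and above, than at intermediate levels, where SUF3 and SUF5 lie.

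Most tRNA genes had higher levels at 4 h, and some of them passed the test. Of 91 tested, 23 rose, 0 fell and 68 did not pass, with a median change of 1.46 log2 units beside -0.04 for all genes. Both 4 h arrays lay above both 1 h arrays for 82 of the 91, where 20.5% of all genes showed this, and below them for 6, where 25.4% of all genes did. The 23 that rose did so by 1.32 to 3.42 log2 units, or 2.49-fold to 10.7-fold, with adjusted p from 1.70e-05 to 0.0485.

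SUF5, a glycine tRNA gene, had levels of 3.02 and 3.0 at 1 h and of 6.73 and 6.14 at 4 h. SUF3, another glycine tRNA gene, had levels of 1.77 and 1.91 at 1 h and of 5.17 and 5.33 at 4 h. In both genes the arrays of each time lay close together, and the 4 h arrays lay far above those of 1 h. SUF5 rose by 3.42 ± 0.42 log2 units (SE, n = 2 arrays per time, limma adjusted p = 0.00236), and SUF3 by 3.41 ± 0.27 (limma adjusted p = 1.70e-05). SUF3 was the only gene of the 42 that passed with each compared array left out in turn, at 3.34 to 3.49.

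HSX1, an arginine tRNA gene, had levels of -0.98 and -1.30 at 1 h and of 1.52 and 1.52 at 4 h, moving from below the array median to above it. It rose by 2.66 ± 0.37 log2 units (limma adjusted p = 0.00489). CDC65, a glutamine tRNA gene, had levels of 1.40 and 0.89 at 1 h and of 4.09 and 3.44 at 4 h, a rise of 2.62 ± 0.42 (limma adjusted p = 0.00809). TRT2, a threonine tRNA gene, had levels of -0.81 and -1.96 at 1 h and of 0.99 and 1.17 at 4 h. Its 1 h arrays differed from each other by more than those of the other 4 genes, and the rise of 2.47 ± 0.42 (limma adjusted p = 0.0121) was still larger than that spread. The serine tRNA genes SUP19 and SUP16 rose by 2.20 ± 0.31 and 2.02 ± 0.36, from 2.13 and 2.34 to 4.44 and 4.43 for SUP19 and from 2.14 and 2.66 to 4.48 and 4.37 for SUP16. SUP51 and 15 tRNA genes that carry only a systematic name made up the rest, and those 15 rose by 1.32 to 2.01 log2 units.

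Copies of a tRNA gene are near-identical, so most of these probe sets read a family and not a gene. By the suffix of the probe set name, 74 of the 91 were family sets and 13 were shared sets, and 20 of the 23 that rose were of those kinds. HSX1 was read by a set with the suffix i, and TRT2 and YNCG0028W by sets with no suffix. The number of separate tRNAs behind the 23 genes may therefore be smaller than 23. The glycine genes SUF3 and SUF5 and the serine genes SUP16 and SUP19 were all read by family sets. Whether the genes of each pair are separate readings was not tested.

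The median level of the called tRNA genes was lowest at 1 h, on arrays that also served to choose these genes. From 0 h to 1 h their median change was -0.49, and 0 of the 23 passed the threshold. Their median level was 2.63 in the undried cells and 2.23 after 1 h, then 3.69 (2 h), 4.16 (4 h) and 4.17 (8 h). All 23 had both 2 h arrays above both 1 h arrays, as did 15.6% of all genes, in a comparison that reuses the 1 h arrays. All 23 also had both 4 h arrays above both 0 h arrays, as did 25.5% of all genes. The median change from 0 h to 4 h over these genes was 1.37 log2 units, beside 1.90 from 1 h to 4 h, and 13 of the 23 were higher than at 0 h past the threshold, as were 1.08% of all genes. Both changes use the 4 h arrays.

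**Figure D2:**
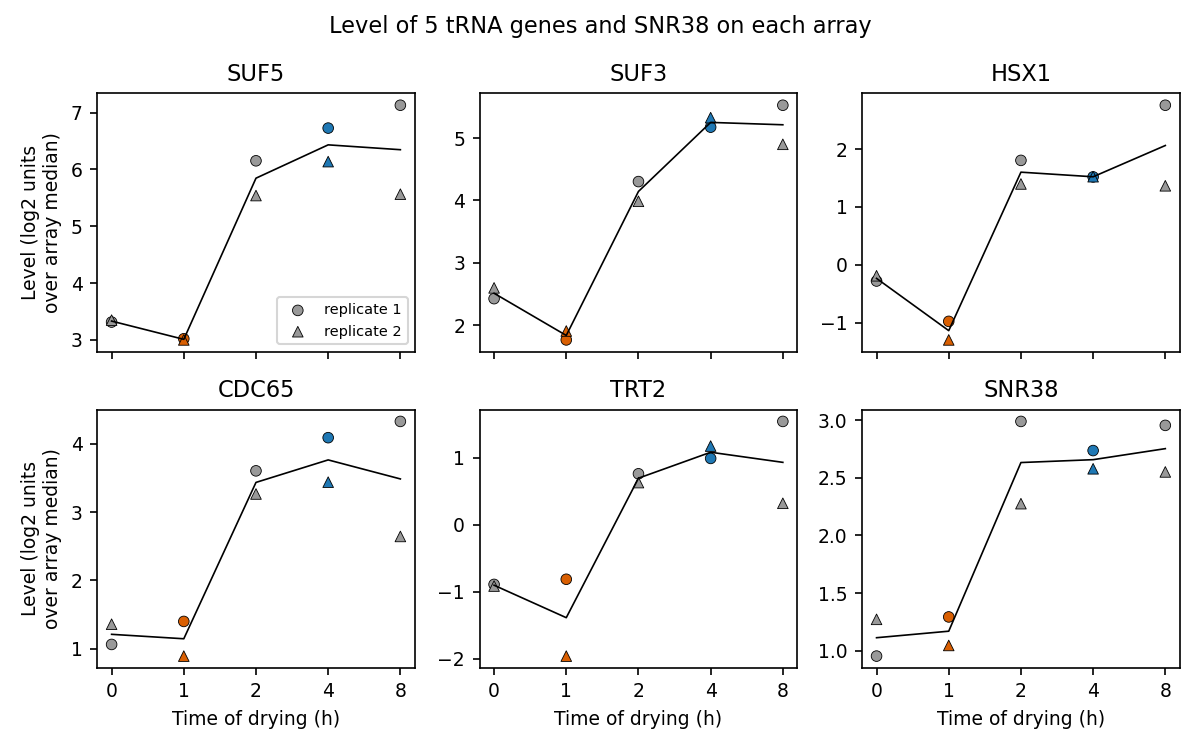
Level on each array, in log2 units over the array median, against time of drying in hours (categories, not to scale) for SUF5, SUF3, HSX1, CDC65, TRT2 and SNR38. Circles are replicate 1 and triangles replicate 2, lines join the means, and the compared 1 h (orange) and 4 h (blue) arrays do not overlap in any of the 6 genes.

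The plot of levels over time shows the step between 1 h and 2 h in all 6 genes, and in SUF3 and TRT2 both 4 h arrays also lie above both 2 h arrays. The 8 h arrays differ from each other by more than 1 unit in SUF5, HSX1, CDC65 and TRT2, and in all 6 genes they lie on both sides of the 4 h arrays.

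Among the 68 tRNA genes that did not pass, 59 had positive changes, of 0.48 to 3.15 log2 units. All 59 had both 4 h arrays above both 1 h arrays, as did 20.5% of all genes. The 59 were picked by their sign on these same arrays, so the shares are not a like comparison. SUF2 had the largest change of these, 3.15 ± 0.75 (limma adjusted p = 0.0744), with 4 h arrays at 4.33 and 2.35 that differed by almost 2 units. The other 9 tRNA genes had negative changes, of -0.82 to -0.34. On the arrays that gave this sign, 6 of them had both 4 h arrays below both 1 h arrays (25.4% of all genes). YNCM0004C had the lowest, -0.82 ± 0.29 (limma adjusted p = 0.305), with levels of 2.51 and 1.98 at 1 h and of 1.12 and 1.74 at 4 h. These 9 genes had been brighter in the undried cells, with a median level of 3.45 at 0 h, 2.08 at 1 h and 1.44 at 4 h, and 8 of them had both 1 h arrays below both 0 h arrays, as did 22.8% of all genes. The sign of the change from 1 h to 4 h set these 9 genes apart from the 23 that rose. Opposite directions of these sets after 1 h therefore follow from that choice.

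Small nucleolar and small nuclear RNA genes were mixed. Of 57 tested, 1 rose, 0 fell and 56 did not pass, with a median change of 0.31 that became 0.10 without 1 h replicate 2. Both 4 h arrays lay above both 1 h arrays in 25 (43.9%), beside 20.5% of all genes. They lay below in 7 (12.3%), beside 25.4% of all genes. SNR38, a box C/D RNA that guides methylation of the large ribosomal RNA, had levels of 1.29 and 1.05 at 1 h and of 2.74 and 2.58 at 4 h, and rose by 1.49 ± 0.28 (limma adjusted p = 0.0194). It is encoded inside TEF4, a translation elongation factor gene, whose own change was 0.24 ± 0.31 (limma adjusted p = 0.898). The spliceosomal RNAs SNR7-L (U5), SNR14 (U4) and SNR19 (U1) had changes of 2.05 ± 0.51, 2.01 ± 0.49 and 1.13 ± 0.36, with limma adjusted p of 0.0890, 0.0787 and 0.234. In all 3 both 4 h arrays lay above both 1 h arrays, at 4.59 and 4.67 against 2.83 and 2.32 for SNR7-L. Another spliceosomal RNA, SNR6 (U6), did not share this, with a change of -0.46 ± 0.65. Its levels were 4.01 and 3.52 at 1 h and 4.62 and 1.99 at 4 h, where the groups overlap. SNR11 lay on the other side, with levels of 3.23 and 3.29 at 1 h and of 2.88 and 1.27 at 4 h, a change of -1.18 ± 0.63 that did not pass.

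The 18 genes that fell did so by 2.27-fold to 6.46-fold, and most had been raised at 1 h over the undried cells. They spanned a heat shock chaperone and a co-chaperone, an amino acid permease, enzymes of lipid and amino acid breakdown, and proteins of RNA processing. Of these 18 genes, 17 were higher at 1 h than at 0 h, all but DIP5, where 53.2% of all genes were. In that comparison, which shares the 1 h arrays, 12 of them rose past the threshold, as did 2.22% of all genes. At 4 h, 4 of the 18 still had both arrays above both 0 h arrays (25.5% of all genes), 5 had both below (18.8% of all genes), and 5 had a mean between the 0 h arrays. None of the 18 passed without 1 h replicate 1 or without 1 h replicate 2, 8 passed without 4 h replicate 1 and 2 without 4 h replicate 2.

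SSA3, a stress-inducible cytosolic Hsp70 chaperone, had levels of 4.34 and 4.20 at 1 h and of 2.70 and 2.55 at 4 h, beside 1.16 and 1.23 at 0 h. The 4 h arrays lay between the other groups without overlap. SSA3 fell by 1.65 ± 0.22 log2 units, or 3.13-fold (limma adjusted p = 0.00489). HCH1, a co-chaperone that stimulates Hsp90, had levels of 2.46 and 2.91 at 1 h and of 1.60 and 1.16 at 4 h, and fell by 1.30 ± 0.26 (limma adjusted p = 0.0337). The 4 h arrays of HCH1 lay below those of the undried cells, at 2.07 and 1.75, whereas those of SSA3 lay above.

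DIP5, the permease for glutamate and aspartate, had levels of 3.82 and 4.26 at 1 h and of 2.38 and 1.40 at 4 h. It fell by 2.15 ± 0.33 log2 units, or 4.43-fold (limma adjusted p = 0.00809). DIP5 was the only one of the 18 genes that was not higher at 1 h, its 0 h arrays being at 4.35 and 4.04, and its 8 h arrays were lower again, at 0.50 and 1.20. UGA2, succinate semialdehyde dehydrogenase in the use of gamma-aminobutyrate as a nitrogen source, had levels of 3.58 and 3.55 at 1 h and of 2.16 and 2.03 at 4 h, and fell by 1.46 ± 0.28 (limma adjusted p = 0.0198). MPO1, a dioxygenase of fatty acid alpha-oxidation, went from 4.31 and 4.34 to 2.75 and 2.54, a fall of 1.68 ± 0.31 (limma adjusted p = 0.0163). XYL2, xylitol dehydrogenase, went from 1.53 and 1.33 to 0.05 and 0.12, below its 0 h arrays at 0.74 and 0.75.

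HRP1, NRD1 and TAD2 are 3 of the 18 whose products act on RNA. HRP1, a subunit of an mRNA cleavage factor, had levels of 4.86 and 4.49 at 1 h and of 3.28 and 3.40 at 4 h, a change of -1.33 ± 0.27 (limma adjusted p = 0.0337). NRD1, which directs the termination of short noncoding transcripts, had levels of 3.56 and 3.51 at 1 h and of 2.60 and 2.11 at 4 h, a change of -1.18 ± 0.25 (limma adjusted p = 0.0379). TAD2, a subunit of the deaminase that converts adenosine to inosine in tRNA anticodons, had levels of 2.13 and 1.72 at 1 h and of 0.61 and 0.17 at 4 h, a change of -1.53 ± 0.30 (limma adjusted p = 0.0259). At 4 h HRP1 lay above its 0 h levels of 2.40 and 2.83, while NRD1 and TAD2 overlapped theirs, at 2.31 and 2.43 and at 0.42 and 0.02.

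The other 9 genes are given with a role where one is well known. RCH1, a regulator of calcium homeostasis, changed by -1.65 ± 0.28, BRR6, a nuclear envelope protein, by -1.39 ± 0.24, and SHU2, a subunit of a DNA recombination complex, by -1.44 ± 0.31. The changes of IRC23, PRM4, OLA1 (an ATPase), YGR127W and OPI10 were -1.39, -1.36, -1.26, -1.20 and -1.19. SAP185, a partner of the Sit4 phosphatase, had the largest change at -2.69 ± 0.54 (limma adjusted p = 0.0296). It was dim, at -0.13 and -0.17 at 1 h and -2.36 and -3.32 at 4 h, where the second 4 h value is the floor set at 0.1 of the array median, so its size is uncertain. At 8 h SAP185 was again at -0.83 and -0.15, above both 4 h arrays.

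**Figure D3:**
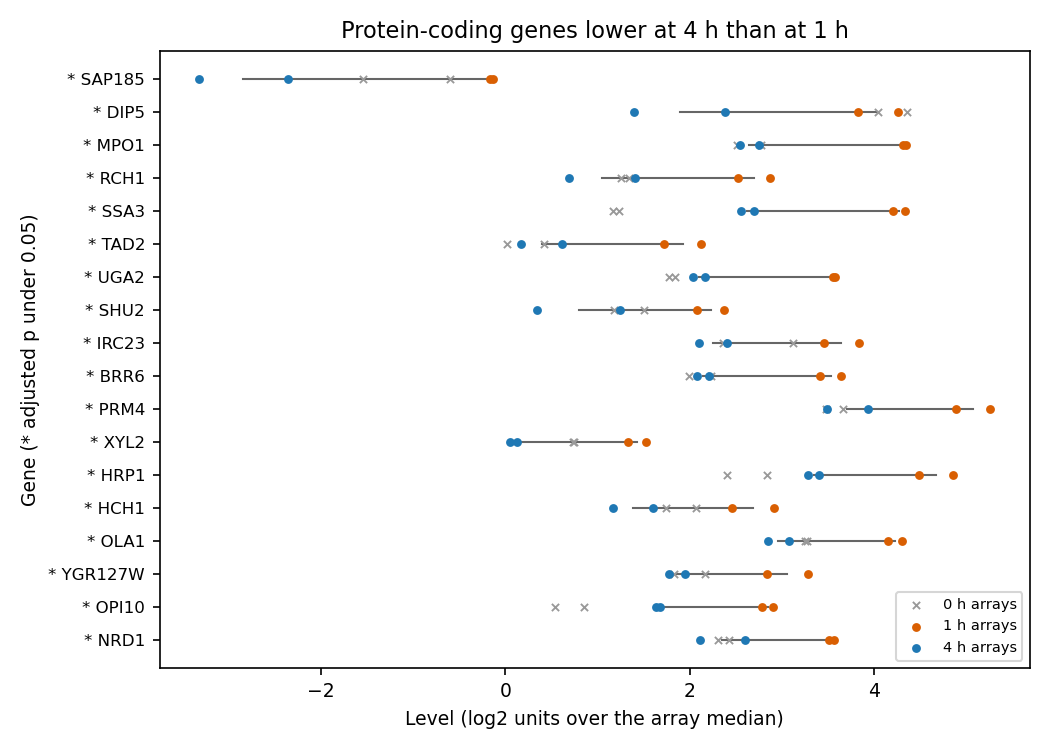
Levels of the 18 genes that fell, in log2 units over the array median, with a point for each 1 h array (orange) and 4 h array (blue), a line between their means, and crosses for the 0 h arrays. In every gene both 4 h arrays lie below both 1 h arrays, and in SSA3, HRP1, OPI10 and UGA2 they lie above the 0 h arrays.

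In the plot of the genes that fell, the crosses of the 0 h arrays lie closer to the 4 h points than to the 1 h points in most genes, and DIP5 and SAP185 are exceptions, with 0 h arrays nearer to those of 1 h.

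No protein-coding gene rose past the threshold, and those with the smallest unadjusted p are given as values. ASH1, a repressor of mating type switching, had levels of 2.27 and 2.59 at 1 h and of 3.51 and 3.47 at 4 h, a change of 1.06 ± 0.23 (limma adjusted p = 0.0525). BOS1, a vesicle fusion protein, and ISR1, a protein kinase, had changes of 1.02 ± 0.26 and 0.90 ± 0.24, with limma adjusted p of 0.0978 and 0.136. YOR072W-B, PSR1 and NSA1, a ribosome assembly factor, had changes of 1.24, 1.60 and 1.09. All 6 had both 4 h arrays above both 1 h arrays, as did 20.5% of all genes. The 6 were picked by their p on these same arrays, so this too is not a like comparison. ASH1 passed in 12 of 24 other settings of the analysis.

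Heat shock chaperones, which refold or hold unfolded proteins, had negative changes in 32 of the list's 37 measured genes, beside 2934 of all 5365. Of 37 genes tested, 2 fell (SSA3 and HCH1), 0 rose and 35 did not pass, with a median change of -0.48 beside -0.04 for all genes. Without scaling of the arrays, these medians were -0.24 and 0.19. Both 4 h arrays lay below both 1 h arrays in 27 of the 37, or 73.0%, where 25.4% of all genes showed this. The Hsp40 YDJ1, with levels of 5.63 and 5.65 at 1 h and of 4.63 and 4.53 at 4 h, had a change of -1.06 ± 0.27 (limma adjusted p = 0.112). CUR1, which sorts misfolded proteins, had a change of -1.32 ± 0.33. The inducible Hsp90 gene HSP82 had levels of 5.94 and 5.60 at 1 h and of 4.93 and 4.88 at 4 h, and its change of -0.86 ± 0.33 did not pass either.

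Other chaperones, none past the threshold, are given as values, and differences between them were not tested. SSA4, an inducible Hsp70, had levels of 5.79 and 5.66 at 1 h and of 5.07 and 5.31 at 4 h, a change of -0.53 ± 0.31, and was still far above its 0 h levels of 1.77 and 1.38. HSP104, the disaggregase, had levels of 5.24 and 4.56 at 1 h and of 4.60 and 4.63 at 4 h, where the groups overlap. The small heat shock genes HSP42 and HSP26 had changes of -0.30 and -0.48. BTN2, a partner of CUR1 in sorting misfolded proteins, had a change of 0.06, and the Hsp90 co-chaperones CDC37 and CPR7 had changes of 0.23 and 0.46. At 4 h, 17 of the 37 genes still had both arrays above both 0 h arrays, where 25.5% of all genes did, and at 1 h 28 had, where 29.4% of all genes did. The cytosolic Hsp70 genes SSA1, SSA2, SSA3 and SSA4 are similar in sequence, and their probe sets may read each other.

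**Figure D4:**
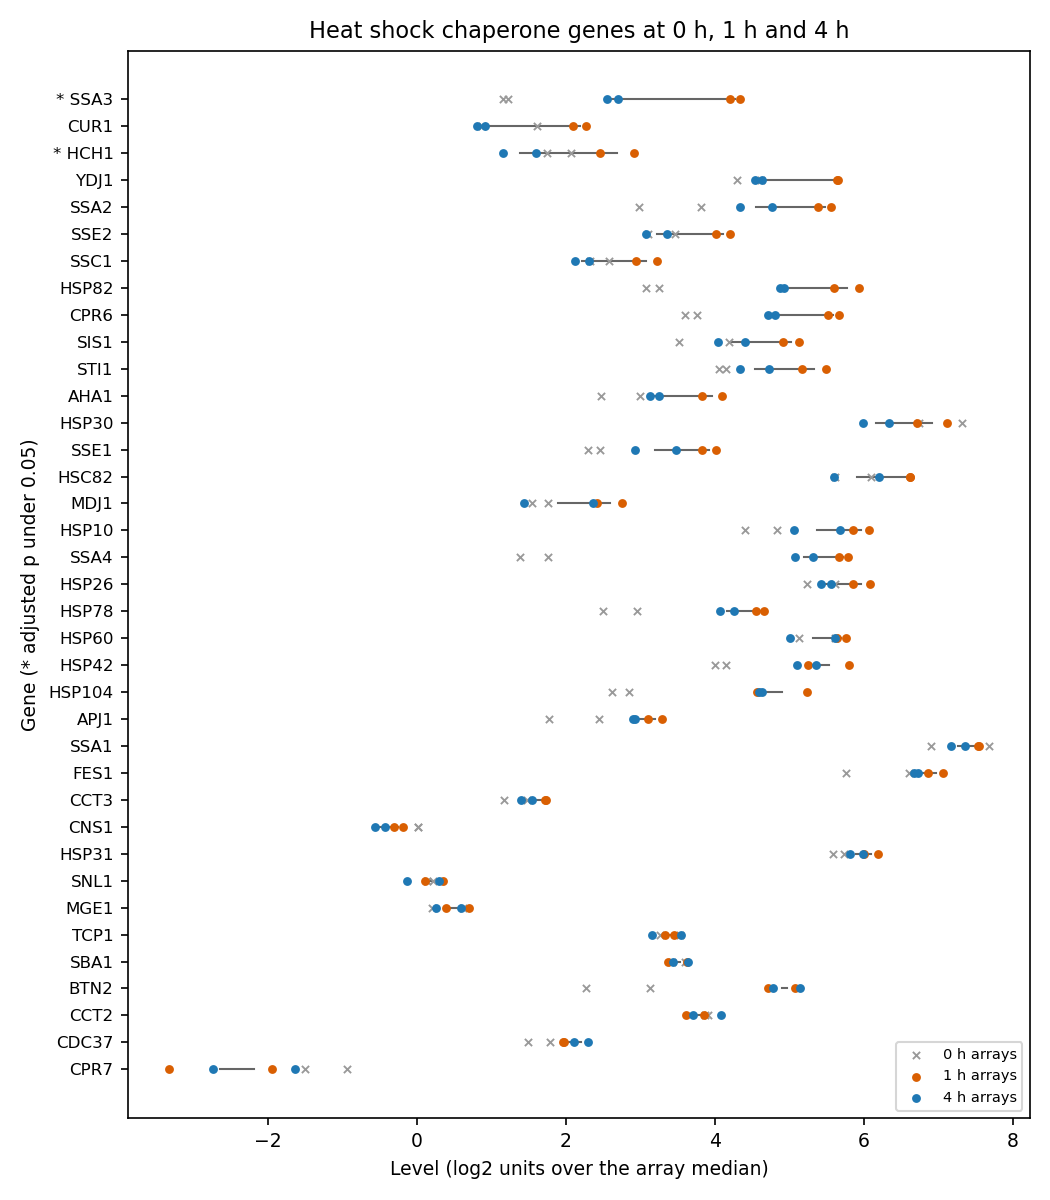
Levels of the 37 heat shock chaperone genes, in log2 units over the array median, ordered by their change from 1 h to 4 h, with a point for each 1 h array (orange) and 4 h array (blue), a line between their means, and crosses for the 0 h arrays. SSA3 and HCH1, marked by asterisks, passed the threshold, and the 4 h arrays lie below the 1 h arrays in 27 genes.

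The plot of chaperone levels shows the 4 h points of SSA3, HSP82, SSA4 and CPR6 between their 0 h crosses and 1 h points, and those of HSP104 and BTN2 beside their 1 h points.

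Amino acid permeases, which take up amino acids from the medium, had a median change of -0.45, or -0.21 without scaling. The medians of all genes were -0.04 and 0.19. Of 24 tested, DIP5 fell, 0 rose and 23 did not pass. Both 4 h arrays lay below both 1 h arrays in 11 (45.8%), beside 25.4% of all genes, and above in 0, beside 20.5%. AGP1, a broad amino acid permease, had levels of 2.99 and 3.33 at 1 h and of 2.04 and 1.84 at 4 h, a change of -1.22 ± 0.29 (limma adjusted p = 0.0755). GAP1, the general amino acid permease, and GNP1, a glutamine permease, had changes of -0.88 ± 0.26 and -0.88 ± 0.33. GNP1 was at 1.30 and 1.43 at 4 h, below 2.41 and 2.08 at 1 h and above -0.53 and -0.32 at 0 h. Among 27 genes under nitrogen catabolite repression, which share GAP1 with the permeases, UGA2 fell, 0 rose and the median was -0.09. GDH2, the catabolic glutamate dehydrogenase, had levels of 3.71 and 3.26 at 1 h and of 1.90 and 2.23 at 4 h, a change of -1.42 ± 0.32 (limma adjusted p = 0.0586).

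Lists of carbon metabolism and sugar transport had negative medians with 0 members past the threshold. Without scaling, the medians were -0.11 for gluconeogenesis, -0.06 for beta-oxidation and -0.11 for hexose transport, beside 0.19 for all genes. In gluconeogenesis and the glyoxylate cycle, 29 genes had a median change of -0.35. Of these, 20 (69.0%) had both 4 h arrays below both 1 h arrays, as did 25.4% of all genes. SIP4, an activator of these genes, had levels of 2.50 and 2.65 at 1 h and of 1.47 and 0.64 at 4 h, a change of -1.52 ± 0.35 (limma adjusted p = 0.0669). ICL1, isocitrate lyase, had levels of 6.43 and 5.97 at 1 h and of 5.64 and 5.29 at 4 h, a change of -0.73 ± 0.34. In fatty acid beta-oxidation and peroxisomes, 47 genes had a median of -0.30 and 23 (48.9%) were below without overlap. PEX34, a peroxisomal membrane protein, had a change of -1.36 ± 0.35 (limma adjusted p = 0.121), and PXA2, which imports fatty acids into peroxisomes, of -0.65 ± 0.25. In hexose transport and sugar use, 29 genes had a median of -0.35, and 17 (58.6%) were below without overlap. The glucose transporter gene HXT1 had levels of 4.80 and 4.86 at 1 h and of 4.73 and 4.04 at 4 h, a change of -0.45 ± 0.38, and the uncharacterised YKL107W had a change of -0.60 ± 0.29.

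Protein breakdown genes had small negative changes. Of 34 proteasome genes, 0 passed in either direction and 33 had negative changes, as did 2934 of all 5365 genes. Both 4 h arrays lay below both 1 h arrays in 19 (55.9%), beside 25.4% of all genes. The median was -0.32, or -0.08 without scaling, beside -0.04 and 0.19 for all genes. PRE1, a core subunit, had levels of 3.81 and 3.52 at 1 h and of 2.78 and 2.82 at 4 h, a change of -0.87 ± 0.32 (limma adjusted p = 0.334). RPN4, the activator of proteasome genes, had a change of -0.58 ± 0.25. Among 36 genes of autophagy and vacuolar proteases, 0 passed, with a median of -0.23 that became 0.01 without scaling of the arrays. The median of all genes moved up with it, from -0.04 to 0.19. ATG7, an activating enzyme of autophagy, had levels of 1.66 and 1.55 at 1 h and of 0.97 and 0.77 at 4 h, a change of -0.73 ± 0.24 (limma adjusted p = 0.263).

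Cytosolic ribosomal protein and ribosome biogenesis genes had small positive medians under every alternative tried, with 0 members past the threshold. Between replicate arrays, pooled over 1 h and 4 h, the standard deviation of the median level was 0.10 and 0.08 for these lists. The 80 cytosolic ribosomal protein genes had a median change of 0.09, and 30 (37.5%) had both 4 h arrays above both 1 h arrays, 3 (3.75%) below. Over all genes these shares were 20.5% above and 25.4% below. RPL25 stood apart with a change of -2.50 ± 1.03, which rests on 4 h replicate 2. Its level there was -0.97 beside 4.38 on 4 h replicate 1 and 4.18 and 4.23 at 1 h. The 111 ribosome biogenesis genes had a median of 0.12, with 33 (29.7%) above and 16 (14.4%) below. NOC4, a small subunit assembly factor, had a change of 1.22 ± 0.36 (limma adjusted p = 0.202). Cell wall genes, 47 in number, had a median of 0.21, with 16 (34.0%) above and 6 (12.8%) below. EXG1, an exoglucanase, and TIR1, a wall mannoprotein, had changes of 0.67 ± 0.24 and 0.59 ± 0.25. Without 4 h replicate 1 the medians of these 3 lists were 0.05 for ribosomal proteins, 0.05 for ribosome biogenesis and 0.07 for the cell wall. The median of mitochondrial ribosomal proteins was -0.19 over 73 genes. The 34 cell cycle and DNA replication genes had a median of 0.18.

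**Figure D5:**
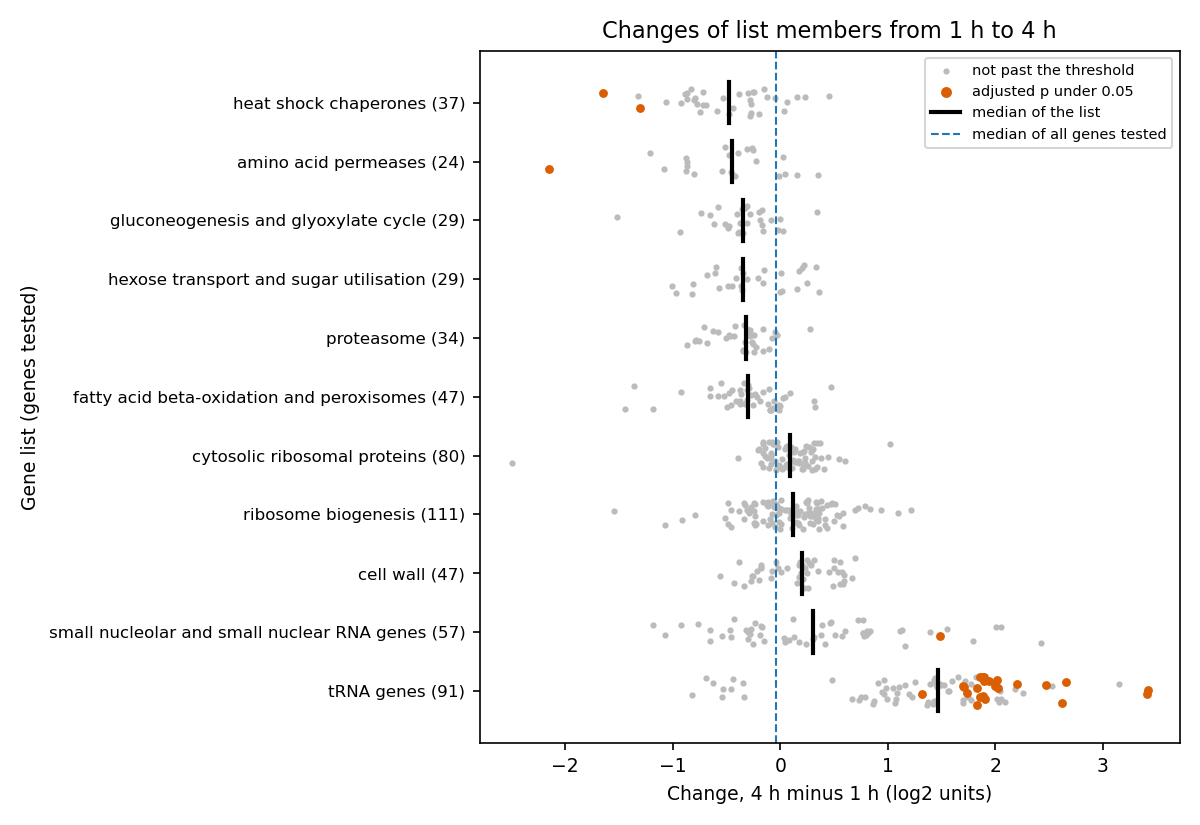
Change from 1 h to 4 h, in log2 units, of each tested member of 11 gene lists, with the number tested in brackets. Black bars are list medians, the dashed line is the median of all genes at -0.04, and orange points have an adjusted p under 0.05, which are 2 chaperones, 1 permease, SNR38 and 23 tRNA genes.

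The plot of list members shows that the protein-coding lists overlap widely and differ in their medians by under 1 unit, while most tRNA genes lie to the right of all of them.

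Stress genes outside the chaperones had 0 members past the threshold. The 36 general stress response genes had a median of -0.15, and catalase gene CTT1, with levels of 4.66 and 4.38 at 1 h and of 5.29 and 5.13 at 4 h, had a change of 0.69 ± 0.29 (limma adjusted p = 0.429). OM45, a mitochondrial outer membrane protein, had a change of -0.87 ± 0.25 (limma adjusted p = 0.198). Trehalose metabolism, which makes and breaks down a sugar that protects dry cells, had a median of -0.08 over 10 genes. Its synthase subunits TPS1 and TSL1 had changes of 0.01 and -0.18, and the trehalases NTH1 and NTH2 of 0.26 and -0.38. The hydrophilin genes, 8 in number, had a median of 0.00, with SIP18 at 0.01, HSP12 at -0.49 and ROQ1 lowest at -1.02. Of the 8, 4 had positive and 4 negative changes. The regulators MSN2, MSN4 and HSF1 had changes of -0.25, 0.37 and 0.35, and actin, ACT1, of -0.11. None of these genes passed the threshold.

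The remaining lists also had 0 members past the threshold. Their medians were 0.09 for glycerol and the osmotic stress response, 0.04 for amino acid biosynthesis, 0.02 for sulfur amino acids, 0.02 for ergosterol synthesis, 0.02 for RNA polymerase I and III, -0.01 for translation factors and -0.02 for glycogen metabolism. They were 0.00 for multidrug resistance and polyamine transport, -0.06 for phosphate uptake, -0.09 for oxidative stress defence, -0.14 for the tricarboxylic acid cycle, -0.15 for the iron regulon, -0.15 for fatty acid synthesis, -0.15 for endoplasmic reticulum chaperones, -0.16 for glycolysis and fermentation, -0.17 for the respiratory chain and -0.21 for the 4 histone genes. Another pair of lists stood for other kinds of yeast cell, namely mating and haploid-specific genes with a median of -0.04 over 29 genes and sporulation genes with 0.02 over 30. In the endoplasmic reticulum list, the chaperone KAR2 had levels of 5.81 and 5.79 at 1 h and of 5.25 and 4.81 at 4 h, a change of -0.77 ± 0.29 (limma adjusted p = 0.354).

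The change from 2 h to 8 h uses none of the 4 arrays compared. Of the 24 genes that rose, 22 were higher at 8 h than at 2 h, with a median change of 0.29, where 55.0% of all genes were higher and their median was 0.05. This rests on 8 h replicate 1, which lay above the 2 h mean in all 24 genes (53.0% of all genes). In 8 h replicate 2 only 5 did so (58.2% of all genes). Replicate 1 at 8 h and replicate 1 at 2 h had the lowest median intensities of the 10 arrays, 23.6 and 28.7. Their actin ratios of the 3' end over the 5' end were the highest, 6.44 and 6.64. Over all 91 tRNA genes the median change from 2 h to 8 h was -0.08. Of the 18 genes that fell, 16 were lower at 8 h than at 2 h, with a median of -0.45, where 45.0% of all genes were lower. Replicates 1 and 2 at 8 h lay below the 2 h mean in 17 and 16 of the 18, beside 47.0% and 41.8% of all genes. HRP1 and DIP5 had the largest of these changes, -1.29 and -1.25, and OLA1 went the other way at 0.54. None of the 42 genes passed the threshold for 8 h against 2 h. Setting the 2 h arrays against the 1 h arrays, which chose these genes, is a description. All 24 genes that rose had both 2 h arrays above both 1 h arrays, where 15.6% of all genes did, and 17 of the 18 that fell had both below, where 30.2% did. The median change from 1 h to 2 h was 1.60 for the genes that rose and -1.17 for those that fell, and from 2 h to 4 h it was 0.33 and -0.22.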

How the data were processed

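The deposited data gave each array's signal intensity on a linear scale, made with GCOS per the submitters' processing notes (version not given in the sources used here). The number of arrays limits the precision. The ratio table that the labels describe and detection calls were not used here.

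Of 9335 probe sets, 60 controls were left out. Of the 9275 others, 6504 had 1 gene, 328 several and 2443 none in the platform annotation, and symbols were updated through the R64 reference table, with no coordinates taken. Values were divided by the array's median over non-control probe sets, floored at 0.1 of it and logged to base 2. A mean log2 under -2.32 (0.2 of the median) left a probe set out, and the brightest probe set stood for a gene, leaving 5365 of 5656 genes. Of 269 genes with several probe sets, 0 were called in opposite directions. Of 1657 unassigned probe sets, 0 passed.

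Group means were fitted to all 10 arrays with limma 3.58.1 (R 4.3.3, eBayes with an intensity trend, 5 residual degrees of freedom), with two-sided p values adjusted by Benjamini-Hochberg and a threshold of 0.05. Errors are limma's standard errors. On simulated data for 5365 genes, 21 of 100 genes changed by 1 log2 unit and 80 of 100 changed by 2 were recovered, with 7 false calls. The simulated noise was normal, independent between genes and equal in spread on all arrays. The real replicates differed more at some times than at others, so these rates may not hold for them. Any pair of arrays had identical values in at most 0.615% of probe sets. The members, the gene lists and the rules were chosen with earlier results of these data known. Named genes were drawn from the largest changes past the threshold, filled up by the smallest p where few passed. They were also drawn from the 2 members of each list with the smallest p and from a set of stress and drying genes. Not every gene picked in this way is given. Other list members and tRNA, snoRNA and snRNA genes were added after their values were seen. Alternatives were scaling, floor, filter, probe set choice, variance trend, the arrays in the fit, array weights, a replicate block and each array left out. Promoter motifs were not analysed.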

Additional observations from a re-analysis of the deposited data

How the results depend on the processing

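All 42 genes kept their direction in every alternative in which they were tested (SAP185 was not tested with a filter at the array median), and the counts varied. With 24 higher and 18 lower in the analysis reported, the counts were 64 higher with quantile normalization, 58 with cyclic loess, 1 with no scaling, 1 (and 2 lower) with the floor at 0.5 of the median, 12 (and 6) without the filter on dim probe sets, and 1 (and 0) without the variance trend. No scaling gave 0 lower. The 1 h and 4 h arrays alone gave 83 and 58, leaving out the dimmest arrays at 2 h and 8 h gave 86 and 97, and array weights gave 76 and 101. The cause of these differences was not tested. A replicate block gave 40 higher and 26 lower, but the labels do not say that numbers pair arrays, and the replicate differences correlated at -0.02 between 1 h and 4 h and at -0.06 to 0.175 over all pairs of times. With 1 array left out at a time, the counts ran from 1 to 63 higher and from 0 to 35 lower, a lone array being assumed to vary like the other groups. Protein-coding genes that rose numbered at most 10 in any alternative, and the tRNA median ran from 1.31 to 1.70. With arrays scaled to their 75th percentile, the all-gene median went from -0.04 to 0.07, and with no scaling to 0.19, and the chaperone median ran from -0.59 to -0.24. Dim genes could not be told from background.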

Other observations

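Some genes were low on a single array. On 4 h replicate 2, 11 genes lay at least 2 log2 units below all 9 other arrays, beside 0 on 4 h replicate 1 and 0 on either 1 h array. RPL25 was the farthest, by 5.14 units, and BUB2, URA5, SEG1 and NOP9 followed, by 3.15, 2.80, 2.78 and 2.65. Replicate 2 at 2 h had 11 such genes and replicate 1 at 8 h had 13. No gene lay that far above all other arrays on any array. Replicates differed by at least 2 units in 13 genes at 1 h and in 72 at 4 h, and the numbers for the 2 h and 8 h pairs were 126 and 133.

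Some genes just outside the threshold passed in many alternatives, namely ASH1 in 12 of 24, SNR76 and GDH2 in 10 each and SIP4 in 9. SNR76, a small nucleolar RNA, had levels of 2.56 and 2.54 at 1 h and of 3.85 and 4.34 at 4 h, a change of 1.55 ± 0.36 (limma adjusted p = 0.0655).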
